A study of Mus musculus with 2 samples.

Results

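Proteasome genes were examined on the pair of mouse arrays that profiled circKcnt2-/- and WT group 3 innate lymphoid cells (ILC3s). The members were all gene symbols of the array annotation that begin with Psm, a letter from a to g and a number. This rule found 50 of 19505 named genes, each read by 1 probe set, and used no measured value. The circKcnt2-/- mice carried a CRISPR/Cas9 deletion of intron sequence needed to form the circular RNA circKcnt2, and the WT mice did not. Whether the WT mice of these samples were littermates is not stated. Both groups were of C57BL/6 background and received dextran sodium sulfate (DSS), which injures the gut epithelium. For its DSS colitis in general, the study's methods describe young adult mice given DSS in the drinking water and then plain water, and age and schedule are not stated for these samples in particular. The cells were sorted by flow cytometry. The study uses more than 1 lineage-negative gate for ILC3s and does not state which one these samples had, nor the number of mice behind each. Total RNA was hybridized to 1 array per genotype. Neither genotype has a replicate array here, so no difference reported here has a spread between animals and no test between genotypes could be made. All levels are log2 values, differences are circKcnt2-/- minus WT, and the level of a gene also depends on its probes, so that levels of different genes are not compared.

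The proteasome degrades proteins that carry ubiquitin chains. Its core is a barrel of outer alpha rings and inner beta rings, and beta subunits hold the catalytic sites. A cap of ATPases and other subunits binds, unfolds and feeds substrates into the core, and the ATPase-free lid of the cap holds an enzyme that removes ubiquitin. Lymphocytes replace catalytic beta subunits by interferon-inducible ones to form the immunoproteasome, which shapes the peptides shown on MHC class I, and epithelial cells of the thymic cortex use a further beta subunit of their own.

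The cells as labelled were checked first. Of 13 ILC3 genes with a value, 8 were above the background level of 2.73 on the circKcnt2-/- array and 9 on the WT array. Il7r was at 7.70 on the circKcnt2-/- array and 7.86 on the WT array, Id2 at 8.39 and 8.40, and Ltb at 7.27 and 7.41. Lta (4.56 and 4.69), Ahr (3.92 and 4.40), Kit (3.74 and 3.67), Cxcr6 (3.69 and 3.62) and Il22 (2.93 and 3.35) were also above it on both arrays, and Rora only on the WT array. The ILC3 receptor genes Il23r, Il1r1, Ccr6 and Ncr1 were below it on both arrays. That level is the one under which 95% of 1410 odour and pheromone receptor genes lay, which were taken as mostly silent in these cells. All 15 T cell genes with a value were above it, between 6.35 and 10.16 on the circKcnt2-/- array and between 5.89 and 9.98 on the WT array. All 11 genes with a value on a list for double positive thymocytes, which shares Cd4, Cd8a and Themis with the T cell list, were above it as well. They lay between 5.28 and 10.41 on the circKcnt2-/- array and between 5.57 and 10.46 on the WT array. Among them were Dntt (8.24 and 8.25), Rag2 (6.80 and 6.17), Cd4 (9.28 and 9.10) and Cd8a (9.71 and 9.65). The Y-linked gene Uty was at 1.24 on the circKcnt2-/- array and 5.26 on the WT array. Genes of the ILC3 list were thus present only in part, while all measured T cell and thymocyte genes were present. Genotype was not all that set the samples apart. The arrays are called by their genotype below.

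Of the 50 proteasome symbols, 49 were above background on at least 1 array and 47 on both. Their median difference was 0.22, and they ranged from -0.34 for Psmg3 to 1.30 for Psmd6. In all, 42 of the 49 (85.7%) were higher on the circKcnt2-/- array, while 56.4% of the 12502 genes above background were. The fold used for counting was 1.5. At that size 6 members (12.2%) were higher, against 7.66% of all genes above background, and none was lower, against 5.22%. The members above 1.5-fold were Psmd6, Psmg2, Psmd13, Psmb7, Psmb11 and Psma6, with Psmb11 counted on its measured values although WT was below background. The next ones below that size were Psmd9 at 1.48-fold and Psmd4 at 1.45-fold.

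The arrays themselves differed by level, and most proteasome genes lay at levels where other genes were higher on the circKcnt2-/- array too. Among 4920 genes of like level, taken between the 10th and 90th percentile of the members' mean levels (4.86 to 7.35), the median difference was 0.14. Of these genes 69.3% were higher by any amount, 6.95% were past 1.5-fold in that direction, and 1.22% were past it in the other. The 39 members in the same window had a median of 0.25, with 35 higher by any amount and 5 of them past 1.5-fold. None was past that fold in the other direction. When each member was set against the median of its own level bin, 30 of 49 lay above it, with a median excess of 0.11. Removal of the trend with level by loess, or quantile normalization of both columns, likewise left 30 of 49 members on the higher side. Subtraction of the median difference of all genes left 35. Of all genes above background, 49% were higher after loess, 48.3% after quantile normalization and, by construction, 50% after the subtraction. Only Psmd6, Psmg2, Psmd13 and Psmb7 lay outside the middle 95% of genes of like level. In the plot of difference against level, these 4 stand above the grey band.

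**Figure D1:**
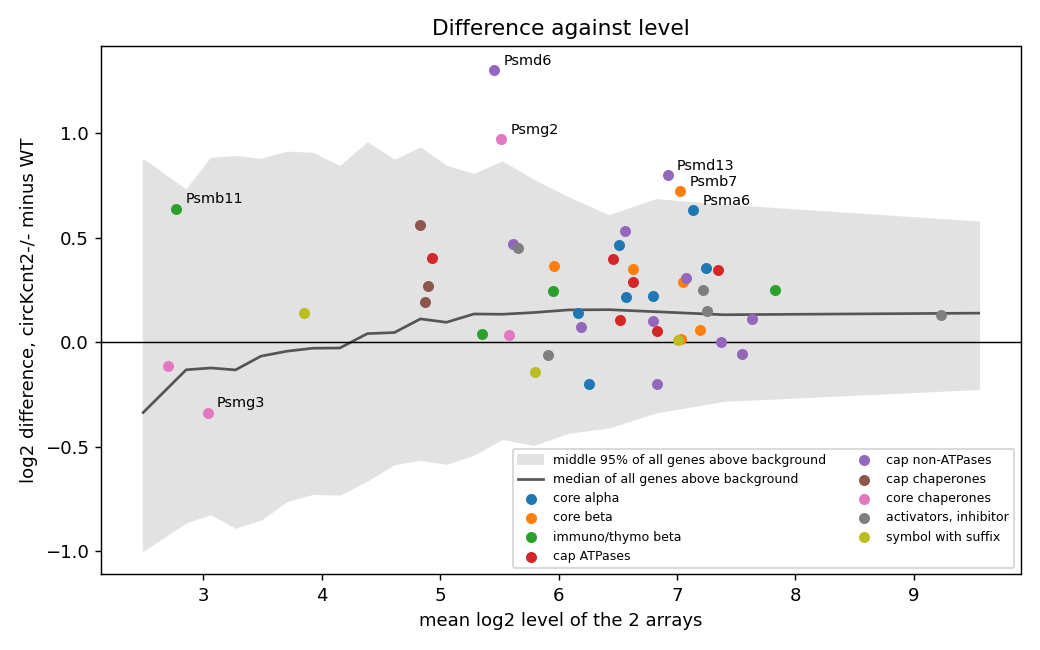
Log2 difference (circKcnt2-/- minus WT) against the mean log2 level of both arrays for the 49 proteasome genes above background, coloured by group; the line and the grey band are the median and the middle 95% of all genes above background in 20 level bins. Most points lie within the band and above 0, and Psmd6 (1.30), Psmg2 (0.97), Psmd13 (0.80) and Psmb7 (0.72) lie above the band.

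As a gauge of precision within the arrays, 22 genes had several probe sets above background, and the differences of probe sets of the same gene were a median of 0.21 apart, with a 95th percentile of 1.12 and a maximum of 1.17. Of the members, only Psmd6 (1.30) had a difference beyond that maximum. Many of the member differences below are of that size or smaller. For bulk RNA, fewer cells of a type and less RNA per cell cannot be told apart.

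**Figure D2:**
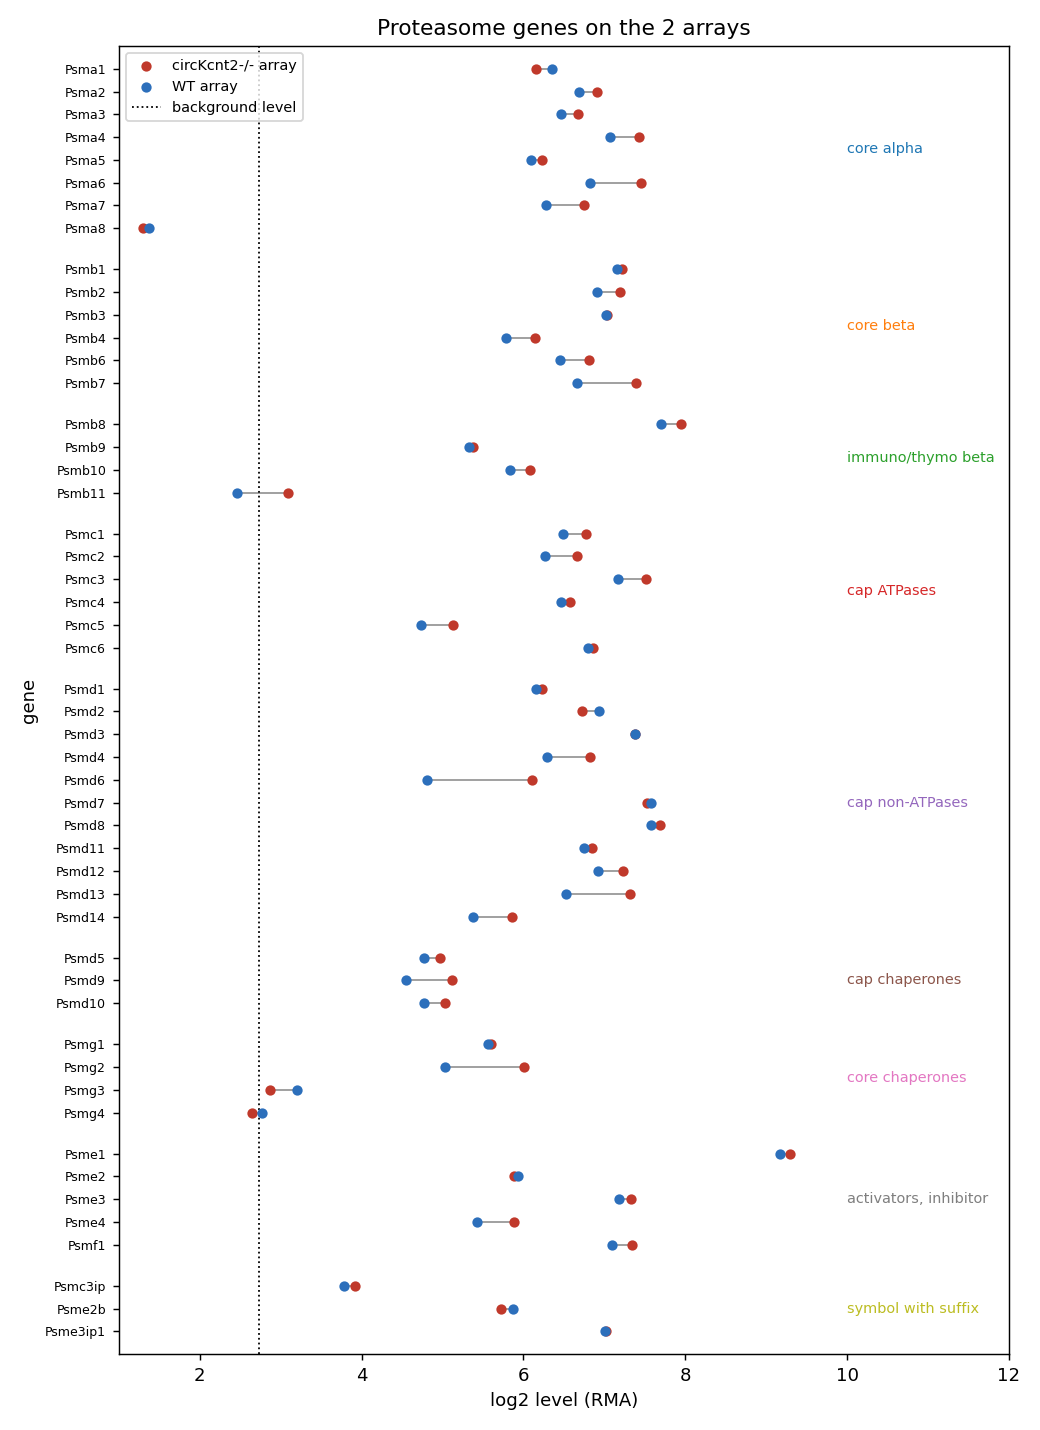
Log2 level of each of the 50 proteasome genes on the circKcnt2-/- array (red) and the WT array (blue), by group, with the background level of 2.73 dotted. The red point lies to the right of the blue point in 42 of the 49 genes above background, with the widest gap at Psmd6 (6.11 and 4.81).

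Promoter sequence is shown for members that were higher together and for 1 that was not. RefSeq promoters of build GRCm38.p6 were matched for 42 of the 50 members, and the 250 bases before each start were searched on both strands. A gene with alternative annotated starts was counted when any of them had the motif. The ETS site CCGGAAG, bound by ETS family transcription factors, was found in 13 of the 42 (31.0%), in 7.83% of all 27025 genes with a promoter and in 14.5% of the 10123 of them above background. Each window below covers 40 bases, written 5′ to 3′ on the strand of the gene, with the matched letters in capitals (CTTCCGG where the site lies on the other strand).
Psmd6, chr14:14120968-14121007, minus strand: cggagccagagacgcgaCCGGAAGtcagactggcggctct
Psma6, chr12:55398676-55398715, plus strand: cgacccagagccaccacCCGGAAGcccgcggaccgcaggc
Psmd4, chr3:95042717-95042756, minus strand: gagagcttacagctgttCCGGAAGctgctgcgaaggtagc
Psme4, chr11:30771705-30771744, plus strand: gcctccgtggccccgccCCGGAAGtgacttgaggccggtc
Psmd2, chr16:20651609-20651648, plus strand: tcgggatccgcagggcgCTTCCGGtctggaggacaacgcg

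The first 4 windows belong to members with differences of 1.30, 0.63, 0.53 and 0.45, and the last to Psmd2 with -0.20. They were picked for these differences, and the site was also found in members close to 0, such as Psmg1 (0.03), Psmc6 (0.05), Psmd11 (0.10) and Psme3 (0.15). Psma6 has alternative annotated starts that do not all have the site. Members with the ETS site had a median difference of 0.29 and those without it 0.22. Over all genes above background these medians were 0.15 and 0.05. The core of the antioxidant response element, TGACNNNGC, through which Nfe2l1 and Nfe2l2 act on proteasome genes, was found in 4 of 42 members (9.52%), in 11.5% of all genes and in 13.6% of those above background. The members were Psmb6, Psmc6, Psmd12 and Psmd9, with differences of 0.35, 0.05, 0.31 and 0.56. Windows for a pair of them follow, because their sites lie nearest to the start, at 1 and 23 bases before it, against 219 and 239 in Psmc6 and Psmd12.
Psmb6, chr11:70525317-70525356, plus strand: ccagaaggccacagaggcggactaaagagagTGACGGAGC
Psmd9, chr5:123228143-123228182, plus strand: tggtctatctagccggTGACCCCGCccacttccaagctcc

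The CCAAT box (CCAAT), bound by the NF-Y complex, occurred in 16 of 42 members (38.1%), close to the 37.5% of all genes. The core of the interferon-stimulated response element, GAAANNGAAA, was found in 3 members (7.14%) and 3.46% of all genes. Those 3 were Psmb3, Psmd4 and Psmd9. The window of the immunoproteasome gene Psmb9 did not hold it. Since promoters were matched for only 42 of the 50 members, its absence in other immunoproteasome genes is not claimed. These matches are descriptions of letters in a short window and were not tested as binding sites.

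Alpha subunits of the core form the outer rings that gate the entry of substrates. Of 8 alpha genes, 7 were above background, and 6 of them had a positive difference. Their median difference was 0.22, or 0.07 after the loess correction for level. Of genes of like level to the members, 69.3% were higher too, and 5 of the 7 lay above the median of their level bin. Psma6 was at 7.45 on the circKcnt2-/- array and 6.82 on the WT array, a 1.55-fold difference. Psma7 (6.74 and 6.28) and Psma4 (7.42 and 7.07) followed. Psma2, Psma3 and Psma5 differed by 0.22, 0.22 and 0.14. Psma1 was the exception, at 6.15 on the circKcnt2-/- array and 6.35 on the WT array. Psma8, which replaces Psma7 in the proteasome of male germ cells, did not reach background on either array (1.30 and 1.37). The alpha genes thus did not share 1 difference, since Psma6 and Psma1 lay 0.63 above and 0.20 below 0.

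Of the 7 constitutive beta genes, 6 had a value, and 1 is not analysed here. All 6 had a positive difference, with a median of 0.32, or 0.17 after the loess correction. Of genes of like level to the members, 69.3% were higher too, and 4 of the 6 lay above the median of their level bin. Psmb7, which carries the trypsin-like site, was at 7.39 on the circKcnt2-/- array and 6.67 on the WT array, a 1.65-fold difference. Psmb6, which carries the caspase-like site, was at 6.81 and 6.45. Among the non-catalytic beta genes, Psmb4 was at 6.15 and 5.78 and Psmb2 at 7.19 and 6.91. Psmb1 (7.22 and 7.16) and Psmb3 (7.04 and 7.02) were within 0.1 of no difference, so the shift of this ring rested on 4 of its 6 measured genes.

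Psmb9 and Psmb10, which interferon induces, had smaller differences than the catalytic genes they replace. Psmb8, the chymotrypsin-like subunit of the immunoproteasome, was at 7.95 on the circKcnt2-/- array and 7.70 on the WT array. Psmb10 was at 6.08 and 5.83, and Psmb9 at 5.37 and 5.33. Psmb10 takes the place of Psmb7, and the log2 ratio of Psmb10 to Psmb7 was lower by 0.48 on the circKcnt2-/- array (change of -0.48). Psmb9 takes the place of Psmb6, and that log2 ratio changed by -0.31. Both ratios are relative shifts between probe sets of the same arrays and do not depend on a common shift of all genes, but neither has a replicate. Both changes were smaller than the 95th percentile of the gap between probe sets of the same gene (1.12). Psmb7 was also 1 of the members outside the middle 95% of genes of like level. The median of these beta genes with Psmb11 was 0.25, or 0.10 after the loess correction.

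Psmb11 encodes the beta subunit of the thymoproteasome, known from cortical epithelial cells of the thymus. It was at 3.09 on the circKcnt2-/- array and at 2.45, below background, on the WT array, so it was at least 1.29-fold higher. Of 10 cortical thymic epithelium genes, Psmb11 included, 4 were above background on the circKcnt2-/- array and 3 on the WT array. Their summed level on the log2 scale was 6.89 and 6.74. Ccl25 (5.05 and 4.61), Ly75 (3.65 and 3.11) and Ctsl (5.42 and 5.49) were above background. Foxn1 (1.95 and 2.14), the factor that defines thymic epithelium, and Prss16 (0.77 and 1.02) were below it on both arrays. The difference of Psmb11 (0.64) lay within the middle 95% of genes of like level (-0.86 to 0.73). It lay above the middle 95% of receptor gene differences (-0.65 to 0.47, SD 0.29 over 1410 genes). Since Psmb11 was below background on the WT array, its difference is of low precision.

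The ATPases of the cap base unfold substrates and thread them into the core. All 6 Psmc ATPase genes had a positive difference, from 0.05 to 0.40, with a median of 0.32 (0.17 after the loess correction), and none reached 1.5-fold. Of genes of like level to the members, 69.3% were higher too, and 4 of the 6 lay above the median of their level bin. Psmc2 was at 6.66 on the circKcnt2-/- array and 6.26 on the WT array, Psmc5 at 5.13 and 4.73, and Psmc3 at 7.52 and 7.17. Psmc1 (0.29) lay below these, and Psmc4 (0.11) and Psmc6 (0.05) were below the median of genes of like level.

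Genes of the other cap subunits had an SD of 0.44 over 11 genes, against 0.31 over all members. Psmd6, a scaffold subunit of the lid, had the largest difference of all members, at 6.11 on the circKcnt2-/- array and 4.81 on the WT array, a 2.47-fold difference. Psmd13, another lid scaffold, was at 7.32 and 6.52, a 1.74-fold difference. Psmd4, a ubiquitin receptor, was at 6.82 and 6.29, and Psmd14, the lid enzyme that cleaves ubiquitin from substrates, at 5.85 and 5.38. Psmd12 differed by 0.31. The large base scaffold Psmd2 was lower, at 6.73 on the circKcnt2-/- array and 6.93 on the WT array. Psmd7, the inactive partner of Psmd14, was at 7.52 and 7.58, so the genes of this pair differed by -0.05 and 0.47. Psmd3 (0.00), Psmd1 (0.07), Psmd11 (0.10) and Psmd8 (0.11) were close to 0. The median of the 11 genes was 0.11, which turned to -0.03 after the loess correction and -0.02 after quantile normalization. The high values of Psmd6 and Psmd13 were not shared by most of these 11 genes, which are not all from the lid.

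**Figure D3:**
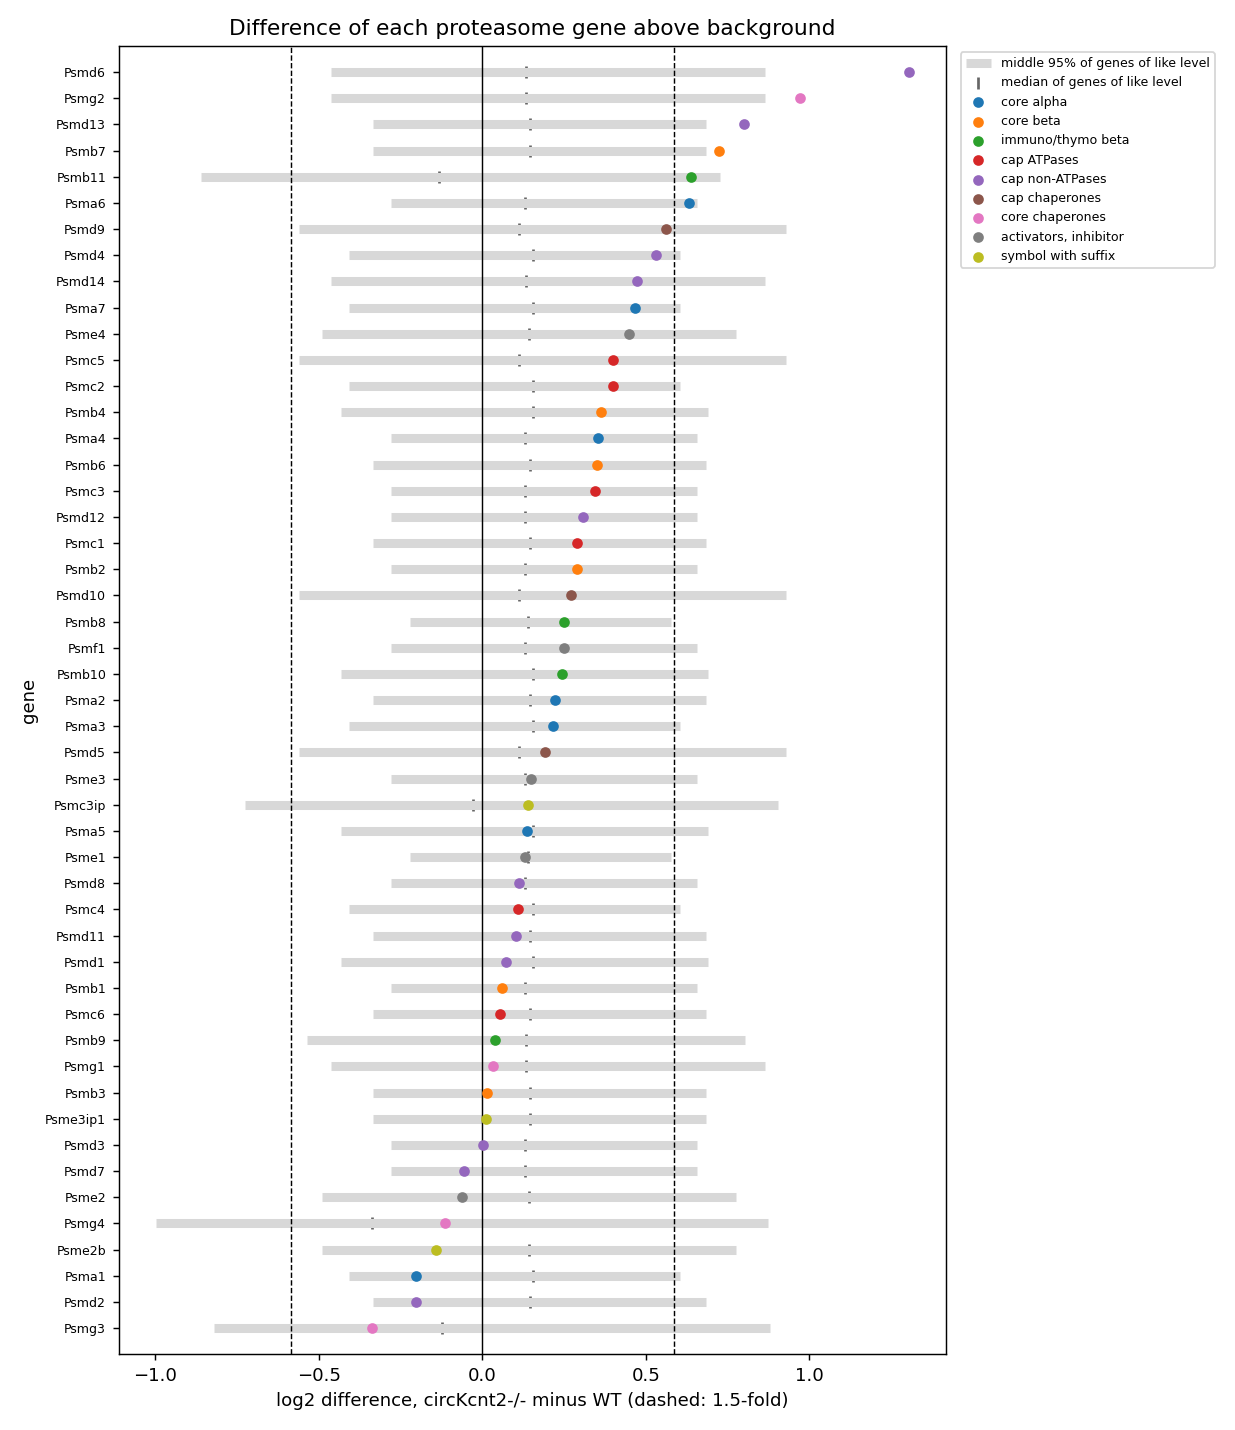
Log2 difference (circKcnt2-/- minus WT) of each of the 49 proteasome genes above background, sorted by size, with the middle 95% (grey bar) and the median (tick) of genes of like level. Psmd6, Psmg2, Psmd13 and Psmb7 lie beyond their bars, and 30 of 49 points lie to the right of their ticks.

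Assembly chaperones build the core and the cap and leave the finished particle. Psmg2, which pairs with Psmg1 to assemble the alpha ring, was at 6.0 on the circKcnt2-/- array and 5.03 on the WT array, a 1.96-fold difference. Its partner Psmg1 was at 5.60 and 5.57. Psmg3 was at 2.87 and 3.21, and Psmg4 was below background on the circKcnt2-/- array and just above it on the WT array (2.65 and 2.76). The core chaperones thus gave a median of -0.04 that no single gene represents, and it changed sign with the mean in place of the median (0.14). The base chaperones had positive differences, with Psmd9 at 5.11 on the circKcnt2-/- array and 4.55 on the WT array, Psmd10 at 5.04 and 4.77 and Psmd5 at 4.97 and 4.77. Pomp, which matures the beta ring and lies outside the symbol rule, was at 6.28 and 5.88.

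Activators open the gate of the core without ATP. The median of the 4 activator genes and Psmf1 was 0.15, and 0.0019 after the loess correction. Psme4, a nuclear activator, was at 5.88 on the circKcnt2-/- array and 5.43 on the WT array. The interferon-inducible activator genes differed less, with Psme1 at 9.30 and 9.17 and its partner Psme2 at 5.88 and 5.94. Psme3, which forms a nuclear ring of its own, was at 7.33 and 7.18, and the regulator Psmf1, known as an inhibitor of the core in vitro, at 7.34 and 7.09. Psme2b, a copy of Psme2, was at 5.73 and 5.87, and the values of both probe sets cannot be taken as independent, since the copies are alike in sequence. The symbol rule also took in Psmc3ip (3.92 and 3.78), a meiotic recombination factor, and Psme3ip1 (7.02 and 7.0), a partner of Psme3. These are no proteasome subunits, and without the 3 symbols that carry a suffix the median of the 46 others was 0.25.

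Genes that work with the proteasome did not move as 1 block. Of 8 measured partners, 5 had a positive difference and 2 were at least 1.5-fold higher, with a median of 0.09. Of all genes above background, 56.4% were higher by any amount and 7.66% were at least 1.5-fold higher. Less the median of genes of like level, the partner median was -0.06. The deubiquitinase Usp14 was at 3.40 on the circKcnt2-/- array and 2.75, close to background, on the WT array. The adaptor Ecpas, known to hold core and cap together, was at 5.34 and 4.74. Txnl1, a thioredoxin bound to the cap, was at 5.69 and 6.06. Sem1 (-0.08), Akirin2 (-0.04), Uchl5 (0.02) and Ube3c (0.16) had small differences. Among 9 genes of ubiquitin receptors and of the p97 unfolding machine, 8 had a positive difference and 7 lay above the median of genes of like level, with a median of 0.22. They were led by Ufd1 (5.12 and 4.46) and Vcp (6.01 and 5.54), which encodes p97 itself.

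Transcription factors that are known to act on proteasome genes were compared as well. Nfe2l1, which raises proteasome genes when the proteasome is inhibited, was at 7.03 on the circKcnt2-/- array and 7.10 on the WT array. Its relative Nfe2l2 was at 4.58 and 4.44. Of their small Maf partners, Mafk was at 4.63 and 3.96, Mafg at 3.89 and 3.74, and Maff at 3.37 and 3.51. Nfya, Nfyb and Nfyc, the NF-Y subunits, differed by -0.09, 0.16 and 0.02, and Stat3 and Foxo3 by -0.13 and -0.06. The median of the 10 regulators was -0.02, and Mafk alone reached 1.5-fold, where 7.66% of all genes above background were at least that much higher.

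The immunoproteasome genes were then set beside the MHC class I route that they supply. Psmb9, Tap1, Psmb8 and Tap2 follow each other in this order in the RefSeq annotation. Tap1, a subunit of the peptide transporter, was at 6.89 on the circKcnt2-/- array and 6.68 on the WT array, and its partner Tap2 at 5.96 and 5.56. These 4 neighbours differed by 0.04, 0.21, 0.25 and 0.39. Further along the route, the peptide trimming enzyme Erap1 differed by 0.26, B2m by 0.18, Canx by 0.34, Calr by 0.10 and Pdia3 by 0.07. The peptide editor Tapbpl was at 5.76 and 5.14, while the loading factor Tapbp was at 7.31 and 7.64. The heavy chain genes H2-K1 (7.98 and 8.28) and H2-D1 (6.70 and 6.87) were lower. The 11 genes had a median of 0.18, with 8 higher (72.7%) and 3 lower, near the 69.3% of genes of like level to the proteasome genes that were higher. Of 11 interferon factors and responders above background, 8 had a positive difference (72.7%, median 0.22), against 56.4% of all genes above background. The largest differences of the list were Ifit3 at 0.50, Irf8 at -0.44, Gbp2 at 0.42 and Stat2 at 0.37, and Irf1, which drives immunoproteasome genes, was at 7.43 and 7.20.

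Other large complexes had differences of like size. The COP9 signalosome and the translation factor eIF3 share the architecture of the proteasome lid, and the CCT chaperonin is another large ring. All 10 COP9 genes had a positive difference, with a median of 0.36, and Cops4 (0.99), Cops5 (0.72) and Cops6 (0.65) were past 1.5-fold. The eIF3 genes had a median of 0.21 with 10 of 11 positive, and the CCT genes 0.22 with 7 of 7 positive. Of all genes above background, 56.4% were positive and 7.66% were at least 1.5-fold higher. Above the median of genes of like level were 10 COP9, 8 eIF3 and 6 CCT genes. Cytosolic ribosomal protein genes (59 above background) and mitochondrial ones (76) each had a median of 0.23. Less the median of genes of like level, the medians were 0.11 for proteasome symbols, 0.21 for COP9, 0.07 for eIF3, 0.14 for CCT, 0.09 for cytosolic and 0.13 for mitochondrial ribosomal proteins. The difference between these lists was not tested. Cell cycle genes stood higher, with a median of 0.69 and 12 of 23 at least 1.5-fold higher, and their part in the shift of the proteasome genes was not tested. T cell genes had a median difference of 0.18. Of 10 macrophage and dendritic cell genes, 4 were above background on the circKcnt2-/- array and 7 on the WT array, with a summed level of 6.41 and 6.62 on the log2 scale. The part of either list in the result was not tested.

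**Figure D4:**
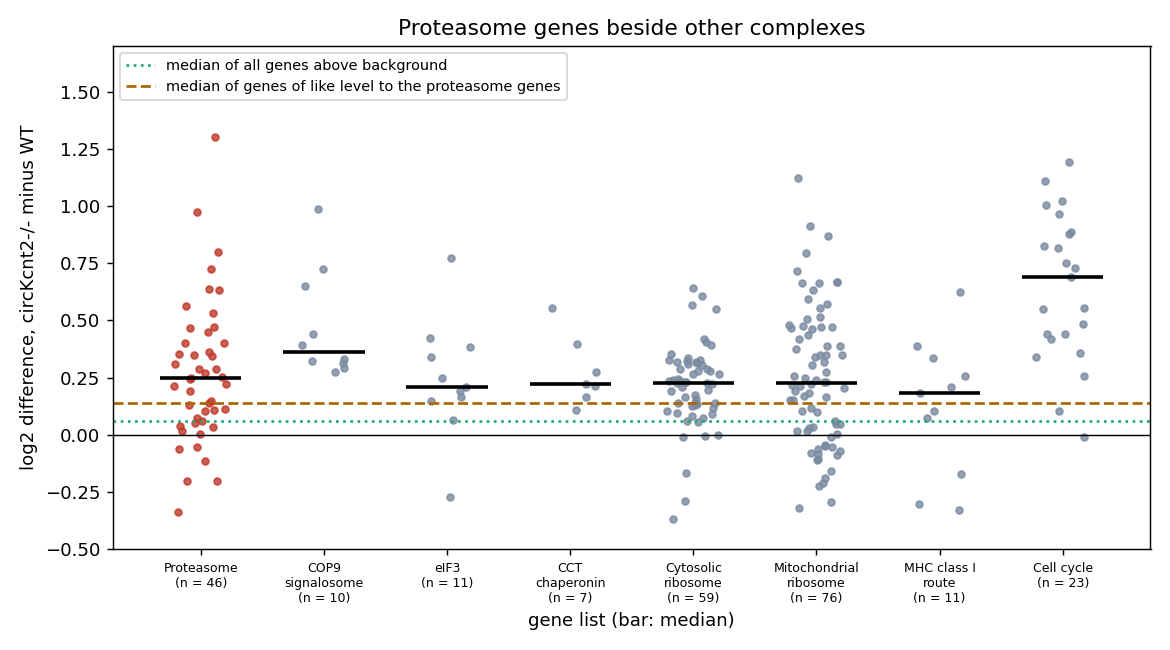
Log2 difference (circKcnt2-/- minus WT) of single genes above background in each list (points, spread sideways for view), with the list median (bar); the lines mark the medians of all genes above background (0.06) and of genes of like level to the proteasome genes (0.14). The proteasome bar (0.25, 46 genes without suffixed symbols) lies among those of the other complexes and below that of cell cycle genes (0.69).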

How the data were processed

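Expression was measured in 1 circKcnt2-/- and 1 WT sample. The authors deposited RMA values in log2 units for 29129 probe sets, and the submitters' processing notes name Affymetrix Power Tools and RMA without versions. RMA corrects background, quantile normalizes and summarizes probes, so a true change common to all transcripts would not be seen. The deposited columns were still not alike. Their medians over all probe sets were 3.22 (circKcnt2-/-) and 3.27 (WT), and the differences varied with level as described above. Gene names came from the platform annotation, and all 50 member symbols matched RefSeq (GRCm38.p6). Probe sets of a gene were averaged. Genes entered the counts when either array reached 2.73, and the number of arrays and the signal over background limit precision. No p-value was computed, since each genotype has 1 array. Genes of like level came from 20 bins of mean level. For a gene that only 1 array measured above background, the fold is a bound against 2.73.

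The text names all members, all measured partner, regulator and MHC class I genes, and up to 4 genes of each other list by size of difference. Irf1, the genes that check the cell labels, those of thymic epithelium and the promoter motifs were picked after values were seen. Members and lists were chosen with earlier results of these data known. Some genes of the lists are not analysed here. Alternatives were no floor, a floor on mean level at the median of named genes, loess (span 0.3), quantile normalization, centring, the probe set with the highest mean, 32 added before log2, other folds, means, and omission of suffixed symbols. A floor at the highest of 23 GC-matched controls (5.91) and values raised to background were added after seeing the data. Scripts were tested on simulated data, with Python 3.11.15, pandas 2.3.3 and statsmodels 0.14.6.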

Additional observations from a re-analysis of the deposited data

How the results depend on the processing

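The median difference of all proteasome symbols (0.22) stayed positive under all 10 alternatives, between 0.10 with loess and 0.25 with the mean. Not all of these could have changed its sign. Each member has 1 probe set, so the choice of probe set altered nothing, and adding 32 keeps the sign of each gene's difference. The cap non-ATPase median (0.11) reversed with loess (-0.034) and quantile normalization (-0.023). The core chaperone median (-0.04, 4 genes) reversed with the stricter floor (0.50, 2 genes), with 32 added before log2 (0.00056) and with the mean (0.14). The cause was not tested. The remaining group medians kept their sign but were smaller with loess, at 0.0019 for activators and inhibitor (0.15 without it), 0.07 for alpha (0.22), 0.10 for immunoproteasome and thymoproteasome (0.25), 0.17 for constitutive beta (0.32), 0.17 for ATPases (0.32) and 0.18 for base chaperones (0.27). The count of members at least 1.5-fold higher (6) was 4 with loess (6.69% of all genes were that much higher) and with centring (5.78%). It was 5 with quantile normalization (6.08%), and 2 (Psmd6 and Psmd13) with 32 added before log2 (0.552%), which compresses all differences. A lower fold cannot reduce the count and a higher one cannot raise it. It was 17 when 25% higher sufficed (22.9% of all genes were that much higher) and 1 at 2-fold (1.11%). The count lower (0) was 1, Psmg3, when 20% lower sufficed, and the share of all genes that much lower is not given here. With values raised to background Psmb11 fell below 1.5-fold (0.36). Psmb11, Psmg3 and Psmg4, within 0.5 of background on at least 1 array, are the least reliable, and no alternative replaces a second array. No paired analysis was possible because each group has 1 array.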
